A study of Homo sapiens with 8 samples.

Results

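The 32 genes described here make cholesterol and fatty acids or control that synthesis. They were given by symbol, as known target genes of the sterol regulatory element-binding proteins (SREBPs) together with the SREBP machinery itself, and each of the 32 matched exactly 1 of the 67008 gene rows of the deposited count table. By role, 18 belong to mevalonate and sterol synthesis, 5 to the control of SREBPs, 1 to sterol transport and 8 to fatty acid synthesis. The RNA came from SKOV3 cells, a widely used line derived from human ovarian cancer, in 4 lines with 2 libraries each. KO 5H5 and KO 2F4 are clones in which the phosphodiesterase gene PDE10A was knocked out, EV 1B9 is a clone that carries an empty vector, and the parental cells were not cloned as far as the labels say. Each of the knockout and empty vector lines is 1 clone, so differences between lines include differences between clones. All cells were untreated and grown in McCoy's medium with fetal bovine serum, which contains cholesterol and fatty acids. The 2 libraries of a line came from distinct passages, and replicate 2 is the library whose title ends in UnTx, a suffix the labels do not explain.

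SREBPs are transcription factors made as membrane proteins of the endoplasmic reticulum. When membrane cholesterol is low, the escort protein SCAP carries them to the Golgi, where proteases release the active part that enters the nucleus. When sterols are plentiful, INSIG proteins hold SCAP in the endoplasmic reticulum and the target genes fall together. SREBP-2, encoded by SREBF2, acts mainly on cholesterol synthesis and uptake, and SREBP-1, encoded by SREBF1, mainly on fatty acid synthesis. Cholesterol and fatty acids supply membranes in dividing cancer cells.

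SREBPs bind promoters together with the CCAAT-binding factor NF-Y and the GC-box factor SP1, so 4 motifs were counted in the promoter windows of RefSeq (GRCh38.p14). The windows run from 250 bases before to 50 bases after a gene's listed start, and only the 250 bases before it were searched. The motifs, searched on both strands, were the sterol regulatory element TCACNCCAC, the CCAAT box CCAAT, the GC box GGGCGG and the E-box CACGTG, which reads the same on either strand. A window was listed for 28 members. CCAAT stood in 18 of them (64.3%), against 32% of all 34788 windows with distinct upstream bases, and the GC box stood in 25 (89.3%), against 42.6%. The E-box stood in 4 (14.3%: SC5D, INSIG1, SCAP and ELOVL5), against 6.31%. TCACNCCAC stood in 1, that of SREBF2 at -133 to -125 from the start, against 0.882%. A match is a run of letters and does not show that a factor binds there. Parts of 5 windows are shown, 3 of genes that were highest in EV 1B9 (HMGCS1, MSMO1 and SCD), that of the feedback gene INSIG1, and that of NSDHL, which was lowest in EV 1B9. CCAAT and GC boxes are in capitals on either strand, so that ATTGG and CCGCCC are the reverse complements of CCAAT and GGGCGG. Each stretch is printed on the strand of its gene and ends before the first annotated exon base. HMGCS1 lies at chr5:43313513-43313662 on the minus strand, MSMO1 at chr4:165327419-165327622, SCD at chr10:100346983-100347123, INSIG1 at chr7:155297628-155297775 and NSDHL at chrX:152830813-152830966, the last 4 on the plus strand.
HMGCS1: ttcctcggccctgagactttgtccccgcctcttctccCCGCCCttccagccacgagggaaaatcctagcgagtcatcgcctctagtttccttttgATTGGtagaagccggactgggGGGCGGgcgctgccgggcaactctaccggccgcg
MSMO1: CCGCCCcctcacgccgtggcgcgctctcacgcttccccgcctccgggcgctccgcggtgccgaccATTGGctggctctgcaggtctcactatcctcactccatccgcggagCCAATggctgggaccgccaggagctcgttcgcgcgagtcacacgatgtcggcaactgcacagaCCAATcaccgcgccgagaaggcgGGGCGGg
SCD: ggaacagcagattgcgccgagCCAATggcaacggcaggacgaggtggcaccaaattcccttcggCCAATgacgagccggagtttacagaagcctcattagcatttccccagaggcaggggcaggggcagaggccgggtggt
INSIG1: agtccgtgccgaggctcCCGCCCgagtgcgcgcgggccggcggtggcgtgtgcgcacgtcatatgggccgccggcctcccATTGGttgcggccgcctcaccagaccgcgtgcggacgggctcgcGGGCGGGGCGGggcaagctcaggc
NSDHL: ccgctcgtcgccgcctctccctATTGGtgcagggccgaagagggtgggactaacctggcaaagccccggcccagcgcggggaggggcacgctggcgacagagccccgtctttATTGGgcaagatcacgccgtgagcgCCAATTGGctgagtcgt
The last capitals in INSIG1 are 2 GC boxes that share a base, and those in NSDHL are a CCAAT and its reverse complement that share 2 bases. CCAAT thus stands in the promoters of genes that were high in EV 1B9 and of NSDHL, which was not.

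Counts assigned to genes summed to between 15483683 and 28648044 per library. Reads that fell in no gene, in several genes or at several places of the genome made up 24.1% to 44.6% of all counted reads, most in parental 1 (44.6%) and KO 2F4 2 (33.4%). Levels are CPM, a gene's share of its library's reads after TMM scaling. Tests are the quasi-likelihood test of edgeR, adjusted by Benjamini and Hochberg's method over all genes tested, with calls at an adjusted p under 0.05. PDE10A had 0.229 to 2.26 CPM in the knockout libraries, against 2.54 to 9.04 CPM in the EV 1B9 and parental libraries, a difference that did not pass that test (log2 fold change -3.07, SE 0.84, adjusted p = 0.0988). Between lines, PDE10A was called lower in KO 5H5 against EV 1B9 (-4.32). It was not called in KO 2F4 against EV 1B9 (-2.52), nor in KO 5H5 (-4.06) or KO 2F4 (-2.26) against parental. In EV 1B9 against the other 3 lines it was called higher (2.37), a call lost without EV 1B9 replicate 2 and with offsets for GC content and length. All 9 epithelial markers averaged at least 1 CPM. Summed fibroblast markers, mostly COL1A1, ranged from 6.38 to 2005 CPM in knockout, 23.7 to 123 CPM in EV 1B9 and 126 to 137 CPM in parental libraries, whereas endothelial, haematopoietic and hepatocyte or adipocyte markers summed to at most 5.12 CPM, with CD3E, LYZ, ADIPOQ and FABP4 at 0. In bulk RNA, fewer cells that express a gene and less RNA per cell cannot be told apart.

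Levels of the members spanned a wide range. Per kilobase of exon, FASN, the synthase that builds palmitate, and PMVK, which adds the phosphate to phosphomevalonate, had the highest mean levels over the 8 libraries, 109 and 108 CPM per kilobase. MVD (62.7), ACLY (51.6), NSDHL (40.6), SCAP (38.1) and SREBF2 (37.7 CPM per kilobase) followed. The order changed between lines. By line means, PMVK stood below SREBF2 (54.0) and ACLY (51.5) in EV 1B9, with 47.4 CPM per kilobase. Neither order held in both EV 1B9 libraries. The mean of PMVK stood above that of FASN in KO 2F4 (160 against 152 CPM per kilobase) and in parental cells (106 against 69.7 CPM per kilobase). In KO 2F4 that order rested on replicate 2 and was reversed in replicate 1. SCAP and SREBF2 changed places too, since SCAP had 63.0 and SREBF2 30.0 CPM per kilobase in KO 2F4 but SCAP had 23.4 and SREBF2 54.0 CPM per kilobase in EV 1B9. SREBF2 stood far above SREBF1, with 37.7 against 5.17 CPM per kilobase. At the low end were FDFT1 with 0.239, CYP51A1 with 0.0809 and ACACA with 0.0161 CPM per kilobase. Of the 32 members, 30 averaged at least 1 CPM and 22 at least 10 CPM.

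The 3 lowest members encode central enzymes of their pathways, so their counts are given as deposited. ACACA, whose product makes malonyl-CoA for fatty acid synthesis, had 0 to 12 reads per library and was not tested. CYP51A1, the demethylase that acts on lanosterol, had 21 and 29 reads in EV 1B9, against 2 and 5 in clone 5H5, 3 and 0 in clone 2F4 and 0 and 3 in parental cells. It passed the filter on low counts through EV 1B9, so that its difference follows from how it was kept. Same-strand genes cover 79.4% of its exon bases in GENCODE 29, and reads that fit several genes were assigned to none. FDFT1, the squalene synthase, had 0 to 53 reads. Opposite-strand genes cover 52.3% of the exon bases of ACAT2, and whether counting used strand is not stated, so reads of ACAT2 and of SOD2 or TCP1 may not be separate.

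**Figure D1:**
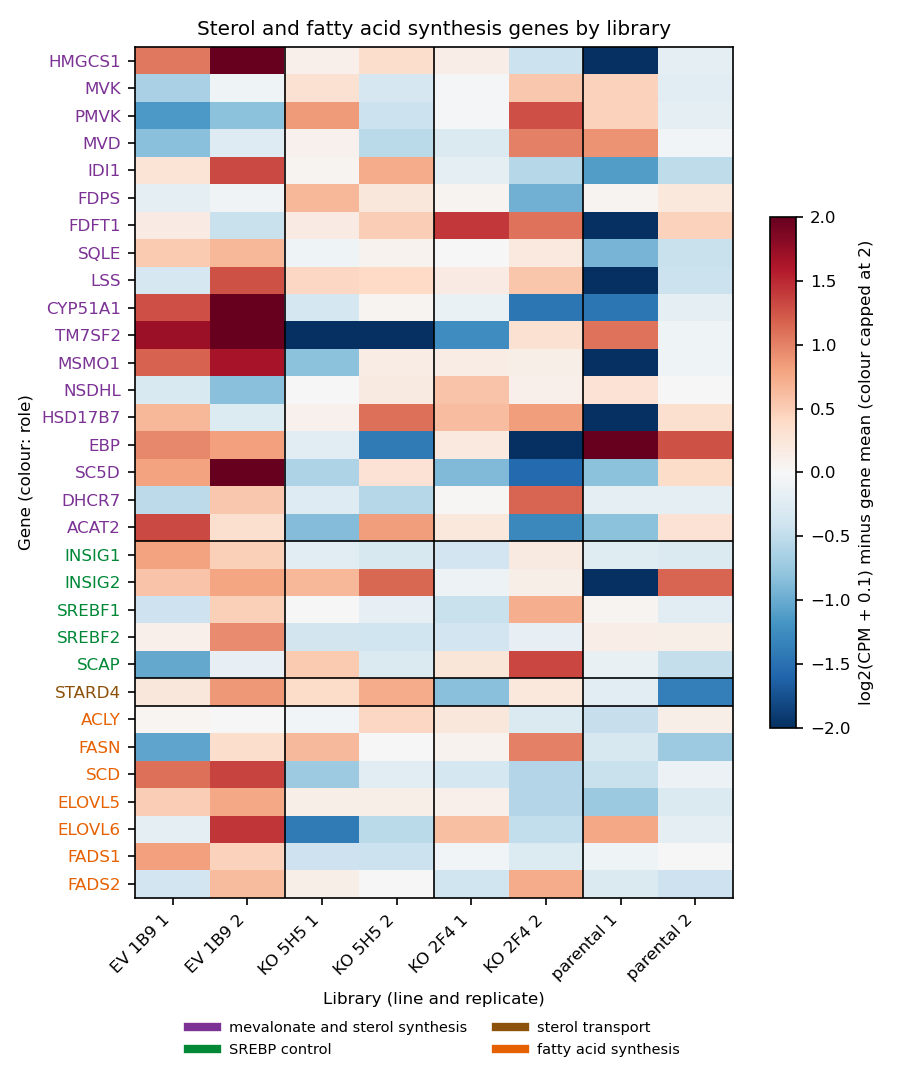
Level in each library of the 31 members that passed the filter on low counts (all but ACACA), as log2(CPM + 0.1) minus the gene's mean over the 8 libraries. Genes are grouped by role down the page, with libraries across. Red is above and blue below that mean, and colours stop at 2 in either direction. The EV 1B9 columns are red for SCD, TM7SF2, SC5D, MSMO1 and HMGCS1 and blue for PMVK and NSDHL.

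The first comparison set EV 1B9 against the mean of the other 3 lines, a comparison chosen with earlier results of these data known. In it, 4 of 18 sterol synthesis genes and the desaturase SCD, 1 of 7 tested fatty acid genes, were higher in EV 1B9, while 0 of 5 control genes passed the test. Of the 31 members that passed the filter, 5 were higher by the test, HMGCS1, TM7SF2, MSMO1, SC5D and SCD, and 0 were lower. Over all 15551 genes tested, 12.2% were called, 7.03% as higher and 5.15% as lower. The median log2 fold change was 0.76 over these 31 members and 0.11 over all genes, and it was above 0 for 22 of the 31 members (71.0%) and for 53.1% of all genes. Both EV 1B9 libraries lay above all 6 others for 10 members (HMGCS1, SQLE, CYP51A1, TM7SF2, MSMO1, SC5D, INSIG1, SCD, ELOVL5 and FADS1), against 14.6% of all genes. CYP51A1 passed the filter only through EV 1B9, and without it 9 of 30 members lay above, 21 of 30 had a log2 fold change above 0 and the median was 0.74. Both lay below all 6 others for PMVK and NSDHL, against 13.1% of all genes. EV 1B9 had the highest line mean for 16 of the 32 members, KO 2F4 for 12, KO 5H5 for 3 and the parental cells for 1, and the parental mean was the lowest for 15. The count of 5 rested in part on single libraries. It fell without EV 1B9 replicate 2 and rose without parental replicate 2, KO 5H5 replicate 2 or either KO 2F4 library. With no filter or with DESeq2 it was 7, and both then gave PMVK as lower in EV 1B9. No filter added ACAT2 as higher, and DESeq2 added FADS1 as higher. The shares of all genes called in these fits are not given, so whether the members moved apart from other genes cannot be told.

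**Figure D2:**
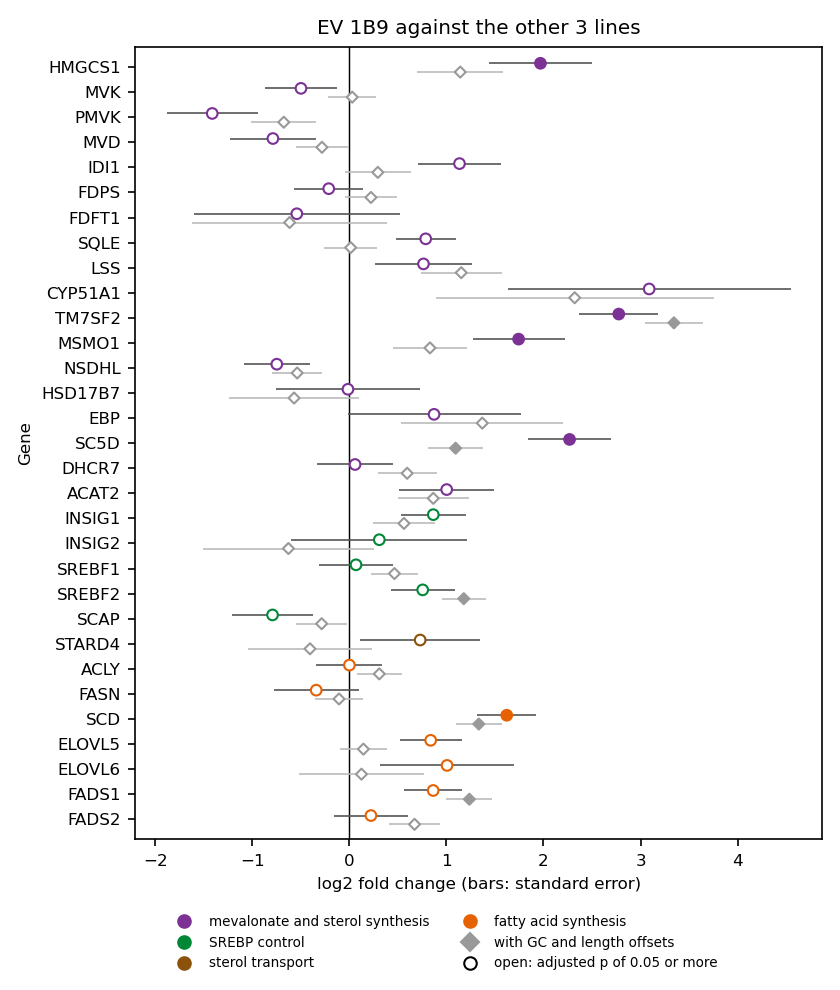
log2 fold change of EV 1B9 against the mean of the other 3 lines for the 31 tested members, with bars of 1 standard error; circles are the uncorrected fit, coloured by role, diamonds the fit with offsets for GC content and length, and filled symbols have an adjusted p under 0.05. TM7SF2 stands farthest right among the called members at 2.78, and PMVK farthest left of all members at -1.41.

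The early steps, which make mevalonate and turn it into farnesyl diphosphate, were split. HMGCS1, which condenses acetyl-CoA and acetoacetyl-CoA into HMG-CoA, had 16.8 and 34.7 CPM in EV 1B9, against 8.64 and 10.3 CPM in clone 5H5, 8.88 and 5.97 CPM in clone 2F4 and 0.83 and 7.08 CPM in parental cells. EV 1B9 did not overlap the other lines (log2 fold change 1.97, SE 0.53, adjusted p = 0.0304), and without EV 1B9 replicate 2 the call was lost (1.36, adjusted p = 0.168). ACAT2, the thiolase that makes acetoacetyl-CoA, had 71.9 and 35.7 CPM in EV 1B9, against 11.7 to 51.1 CPM in the other lines, which overlapped (1.00, SE 0.49, adjusted p = 0.18). The next enzymes ran the other way in level without passing the test. PMVK had 53.6 and 67.8 CPM in EV 1B9, below the 88.6 to 292 CPM of the other 6 libraries (-1.41, SE 0.47, adjusted p = 0.0622). MVK, the kinase before it, averaged 57.1 ± 15.4 CPM in EV 1B9 and 80.9 CPM over the other lines. MVD, the decarboxylase after PMVK, averaged 188 ± 52.5 CPM in EV 1B9 and 332 CPM over the other lines (SD, n = 2 for EV 1B9). IDI1, which isomerises the product of MVD, averaged 12.7 ± 6.28 CPM in EV 1B9 and 6.17 CPM over the other lines (1.14, SE 0.43, adjusted p = 0.0907). FDPS, which joins these units into farnesyl diphosphate, overlapped, with 67.8 and 73.7 CPM in EV 1B9, against 39.8 to 123 CPM in the others. Single libraries decided some of these calls. PMVK was lower without KO 5H5 replicate 2, either KO 2F4 library or parental replicate 2 (adjusted p = 0.00284 to 0.0344). ACAT2 was higher without EV 1B9 replicate 2, KO 5H5 replicate 2, KO 2F4 replicate 1 or parental replicate 2 (0.000998 to 0.0398). IDI1 was higher without KO 2F4 replicate 1 (0.018) or parental replicate 2 (0.0441).

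Among the steps from squalene to cholesterol, TM7SF2, MSMO1 and SC5D were higher in EV 1B9. TM7SF2, a sterol reductase that acts after the demethylation of lanosterol, had 72.7 and 127 CPM in EV 1B9, against 4.98 and 4.96 CPM in clone 5H5, 9.27 and 27.5 CPM in clone 2F4 and 46.9 and 20.8 CPM in parental cells. It had the largest called difference of the members (2.78, SE 0.40, adjusted p = 0.000753), and the EV 1B9 libraries lay above, and the KO 5H5 libraries below, all others. MSMO1, which removes methyl groups from sterols, had 21.9 and 30.4 CPM in EV 1B9, against 5.43 and 10.7 CPM in clone 5H5, 10.7 and 10.5 CPM in clone 2F4 and 1.81 and 9.11 CPM in parental cells (1.74, SE 0.47, adjusted p = 0.031). SC5D, a sterol desaturase near the end of the pathway, had 31.0 and 93.4 CPM in EV 1B9, against 11.6 and 21.8 CPM in clone 5H5, 9.61 and 5.97 CPM in clone 2F4 and 10.0 and 22.9 CPM in parental cells (2.27, SE 0.43, adjusted p = 0.00547). EV 1B9 overlapped no other line for either gene, but the EV 1B9 libraries themselves differed 3-fold for SC5D. Without EV 1B9 replicate 2 both calls were lost, with an adjusted p of 0.0855 for MSMO1 and a log2 fold change of 1.28 and an adjusted p of 0.13 for SC5D.

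The other late enzymes did not pass the test. SQLE, the epoxidase that commits squalene to sterols, had 44.5 and 49.2 CPM in EV 1B9, above the 16.3 to 35.6 CPM of the other libraries (0.79, SE 0.31, adjusted p = 0.105). LSS, which closes the sterol rings, averaged 12.0 ± 8.65 CPM in EV 1B9, against 7.71 CPM over the other lines, and its values overlapped. NSDHL, a dehydrogenase that works with MSMO1, had 63.4 and 43.7 CPM in EV 1B9, below the 77.9 to 117 CPM of the others (-0.75, SE 0.34, adjusted p = 0.157). HSD17B7, the reductase of the same step, and EBP, a sterol isomerase, were low and overlapped, with means of 3.92 and 2.21 CPM in EV 1B9, against 4.27 and 1.73 CPM over the other lines. DHCR7, which makes cholesterol from its last precursor, had 93.1 and 195 CPM in EV 1B9, against 90.6 to 301 CPM in the others. EBP was called higher without KO 2F4 replicate 1 (adjusted p = 0.00617), where the single KO 2F4 library left had 0 reads of it.

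Of the control genes none passed the test. INSIG1, itself an SREBP target and the classic readout of the feedback loop, had 30.0 and 24.0 CPM in EV 1B9, above the 13.0 to 19.3 CPM of the other 6 libraries (0.87, SE 0.33, adjusted p = 0.0987). INSIG2, the form that is not an SREBP target, averaged 3.19 CPM in EV 1B9 and 2.66 CPM over the other lines, and it was called without parental replicate 2 (adjusted p = 0.0107), where the parental library left had 0 reads. SREBF2 had 292 and 524 CPM in EV 1B9, against 210.5 and 207 CPM in clone 5H5, 209 and 244 CPM in clone 2F4 and 299 and 297 CPM in parental cells. The lower EV 1B9 library was thus level with the parental ones (0.76, SE 0.33, adjusted p = 0.137). SREBF1 had 29.9 and 55.9 CPM in EV 1B9, against 29.3 to 66.3 CPM in the others, and SCAP had 107 and 195 CPM in EV 1B9, against 156 to 552 CPM, with the highest value in KO 2F4 2. STARD4, a soluble carrier of cholesterol between membranes, averaged 3.33 ± 1.05 CPM in EV 1B9, against 2.16 CPM over the other lines, and the libraries overlapped.

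Of the fatty acid genes, SCD was the only one called. SCD, which puts a double bond into saturated fatty acids, had 90.0 and 107 CPM in EV 1B9, against 25.3 and 36.3 CPM in clone 5H5, 33.2 and 28.1 CPM in clone 2F4 and 30.7 and 38.9 CPM in parental cells. The 6 other libraries formed a narrow band far below EV 1B9 (1.62, SE 0.30, adjusted p = 0.00471), and SCD, like TM7SF2, was called in each of the 15 alternative settings tried. FADS1, a desaturase of polyunsaturated fatty acids, had 113 and 88.4 CPM in EV 1B9, above the 47.6 to 63.5 CPM of the others (0.86, SE 0.30, adjusted p = 0.0693). ELOVL5, which lengthens polyunsaturated fatty acids, had 65.3 and 79.2 CPM in EV 1B9, above the 27.5 to 50.2 CPM of the others (0.84, SE 0.32, adjusted p = 0.0955). Without KO 2F4 replicate 1, FADS1 (1.03, adjusted p = 0.0209) and ELOVL5 (1.09, adjusted p = 0.0153) were called. FADS2, the neighbour of FADS1 in the genome and in the pathway, overlapped with 141 and 284 CPM in EV 1B9, against 136.5 to 306 CPM. ELOVL6, which lengthens saturated fatty acids, averaged 3.09 ± 2.31 CPM in EV 1B9 and 1.65 CPM over the other lines. FASN had 449 and 1186 CPM in EV 1B9, against 559 to 1874 CPM (-0.34, SE 0.44, adjusted p = 0.628), and ACLY, which supplies acetyl-CoA from citrate, had 271 and 266 CPM in EV 1B9, inside the 193 to 353 CPM of the others.

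**Figure D3:**
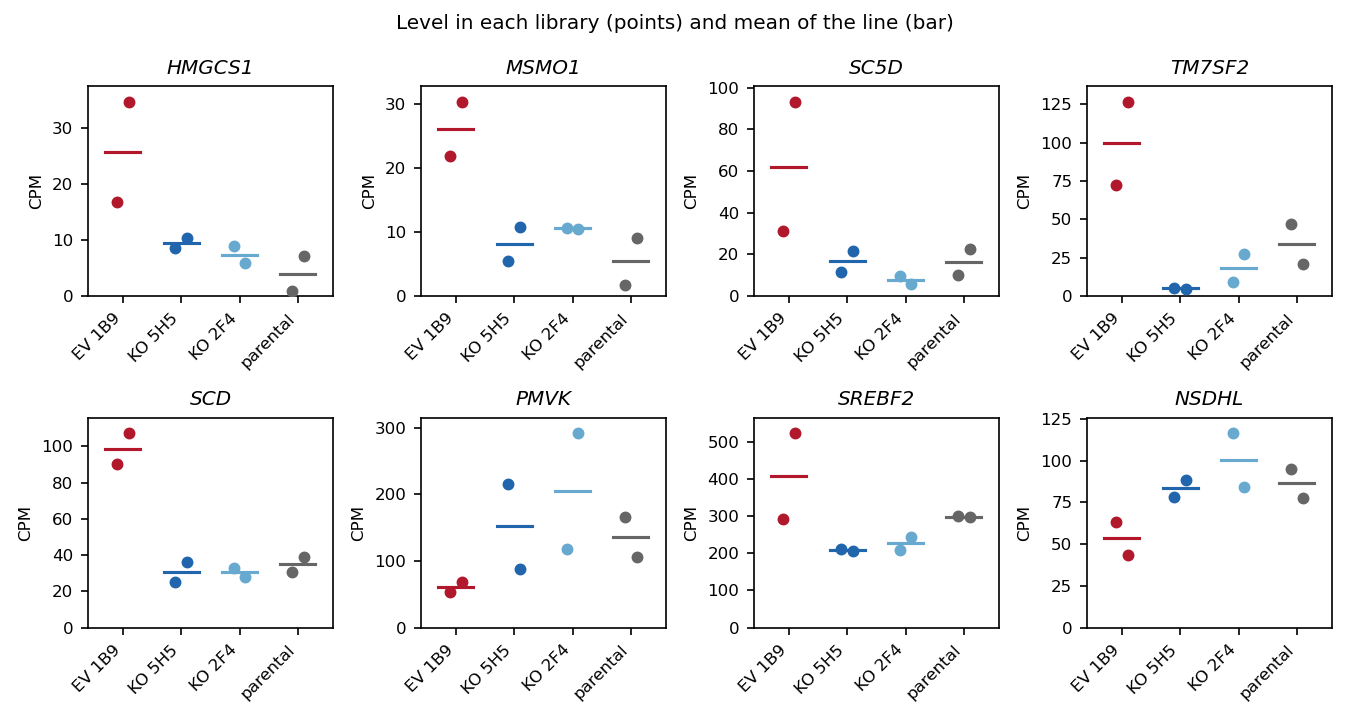
CPM in each library (points) and the line mean (bar) for 5 members called in EV 1B9 and for PMVK, SREBF2 and NSDHL, each axis starting at 0. Both EV 1B9 points lie above all others for HMGCS1, MSMO1, SC5D, TM7SF2 and SCD and below all others for PMVK and NSDHL, while EV 1B9 replicate 1 is level with the parental points for SREBF2.

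The GC content of transcripts moved with this comparison. The rank correlation of a gene's level, relative to its mean over libraries, with its GC content was -0.43 and -0.45 in the EV 1B9 libraries, 0.23 and -0.34 in those of clone 5H5, 0.06 and 0.35 in those of clone 2F4 and 0.31 and 0.20 in parental cells. Among genes below the median GC content of 49.7%, the median log2 fold change was 1.00 for the 15 members and 0.76 for all genes there. At or above it, the medians were 0.03 for 16 members and -0.50 for all genes. SC5D (37.4% GC), MSMO1 (38.6%) and HMGCS1 (41.6%) are among the GC-poor members, TM7SF2 (62.9%) and PMVK (59.5%) among the GC-rich ones. When each library's own dependence on GC content and length was removed with offsets, the members' median was 0.31 and that of all genes 0.02, and 9.71% of 15290 genes were called, 5.31% as higher. Again 5 members were higher and 0 lower, but HMGCS1 (1.14, adjusted p = 0.132) and MSMO1 (0.83, adjusted p = 0.208) were no longer called, and FADS1 (1.24, adjusted p = 0.00478) and SREBF2 (1.18, adjusted p = 0.00467) were called beside TM7SF2 (3.34), SC5D (1.10) and SCD (1.33). PMVK was at -0.68 (adjusted p = 0.243), MVD at -0.28, MVK at 0.03 and SQLE at 0.01. Whether the GC trend arose in the cells or in library preparation was not tested.

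**Figure D4:**
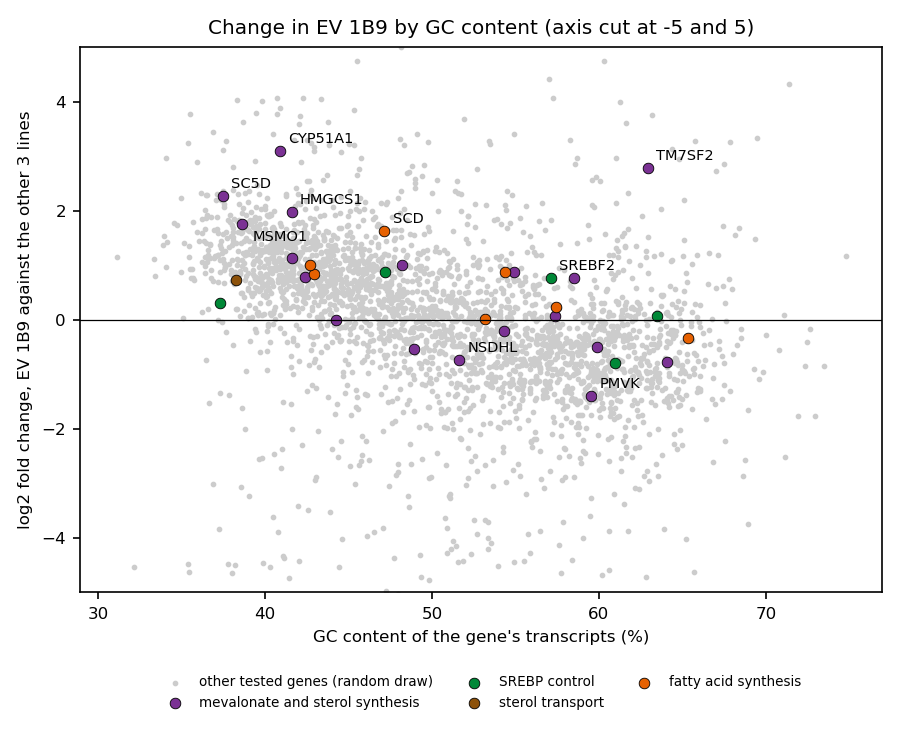
log2 fold change of EV 1B9 against the other 3 lines by the GC content of the gene's transcripts for the 31 tested members, coloured by role, and for 3000 randomly drawn other genes in grey; values beyond 5 in either direction are not drawn. The grey cloud falls from left to right, SC5D and MSMO1 lie near its upper edge at low GC content, and TM7SF2 lies far above it at 62.9% GC.

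The members did not move as 1 block. Over the 8 libraries, the correlation of a member's log2 level with the mean of the other members ran from 0.90 for SQLE, 0.88 for HMGCS1 and 0.87 for MSMO1 to -0.80 for NSDHL, with PMVK at -0.48 and MVD at -0.47. These values describe 8 libraries that share lines and GC trends. The median member stood 0.64 above its own mean on the log2 scale in EV 1B9 2 and 0.24 above it in EV 1B9 1, against medians over all genes of 0.05 and 0.07. Parental 1 was lowest, at -0.30 for the median member and -0.01 for all genes. It also held the most reads not assigned to a gene, whose part in this was not tested. EV 1B9 2 had the highest value of all libraries for 13 of the 32 members, and KO 2F4 2 for 9. Between the libraries of EV 1B9, replicate 2 was above replicate 1 for 23 of 31 members, with a median difference of 0.56, against 0.13 over all genes. Within the libraries without the title suffix, EV 1B9 stood above the mean of the other lines by 2.02 for HMGCS1, 2.48 for TM7SF2, 2.19 for MSMO1, 1.57 for SC5D and 1.61 for SCD on the log2 scale. Within those with the suffix, the differences of the same 5 genes lay between 1.58 for MSMO1 and 3.15 for TM7SF2. These 5 genes were picked by their calls in the same libraries, where EV 1B9 did not overlap the others. A positive difference in both was therefore fixed in advance and adds no support. EV 1B9 was above in both for 16 of 31 members (51.6%), against 40.8% of all genes. That count includes the 10 members for which EV 1B9 lay above all other libraries, CYP51A1 among them. Their sign was fixed in the same way, so the count adds no support either. Outside the lipid lists, the genes most like the members' mean profile were SGMS2, NECTIN3, NBEA, SSR1 and INTS8, with Pearson correlations of 0.96 to 0.97 over the 8 libraries. These 5 genes were picked from all tested genes by that correlation, so its high values were fixed in advance and add no support. SGMS2 is a sphingomyelin synthase, and it averaged 8.84 CPM in EV 1B9 and 3.26 CPM in the other libraries. NECTIN3 (10.67 against 2.915 CPM), NBEA (2.907 against 0.405 CPM), SSR1 (68.5 against 35.5 CPM) and INTS8 (11.2 against 4.03 CPM) also averaged higher in EV 1B9.

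The design of the study compares both PDE10A knockout clones with both control lines. In that comparison 0 of the 30 members that passed the filter were called, against 1.42% of 13508 genes (0.296% higher and 1.13% lower), and 6 had an unadjusted p under 0.05 (TM7SF2, EBP, SC5D, SCD, SREBF2 and SCAP), against 15.1% of all genes. The median log2 fold change was 0.05 over these members and -0.14 over all genes, and 16 of 30 were above 0. With GC and length offsets the medians were 0.02 for the members and 0.04 for all genes, so that the median of all genes moved by more than that of the members. EBP and SREBF2 were lower in every knockout library than in every control library, against 5.63% of genes, and 0 members were higher without overlap, against 4.67%. SREBF2 had 207 to 244 CPM in the knockout libraries, against 292 to 524 CPM in the controls (-0.73, SE 0.31, adjusted p = 0.289). EBP averaged 0.665 ± 0.595 CPM in the knockout and 3.04 ± 1.24 CPM in the control libraries (SD, n = 4 each), few reads in either class. SCAP averaged 326 ± 161 CPM in the knockout and 164 ± 42.4 CPM in the control libraries (0.97, SE 0.39, adjusted p = 0.263), and FASN 1309 ± 444 CPM in the knockout and 735 ± 325 CPM in the control libraries (0.81, SE 0.39, adjusted p = 0.352). Both overlapped between classes.

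TM7SF2 came nearest to a call, with 4.96 to 27.5 CPM in the knockout and 20.8 to 127 CPM in the control libraries (-2.55, SE 0.66, adjusted p = 0.0862). Its classes overlapped through KO 2F4 2 at 27.5 CPM and parental 2 at 20.8 CPM. It was called lower with GC and length offsets (-3.01, adjusted p = 0.0286), where 4.28% of all genes were called and 2.28% as lower, and without KO 2F4 replicate 2 (-3.38, adjusted p = 0.0211). SC5D averaged 12.2 ± 6.76 CPM in the knockout and 39.3 ± 37.1 CPM in the control libraries (-1.74, SE 0.61, adjusted p = 0.20). Its parental libraries, at 10.0 and 22.9 CPM, overlapped the knockout values of 5.97 to 21.8 CPM. SCD, at 25.3 to 36.3 CPM in the knockout libraries, was likewise level with the parental 30.7 and 38.9 CPM, while EV 1B9 had 90.0 and 107 CPM. For SC5D and SCD the parental libraries thus lay with the knockout libraries, and both EV 1B9 libraries stood above them.

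**Figure D5:**
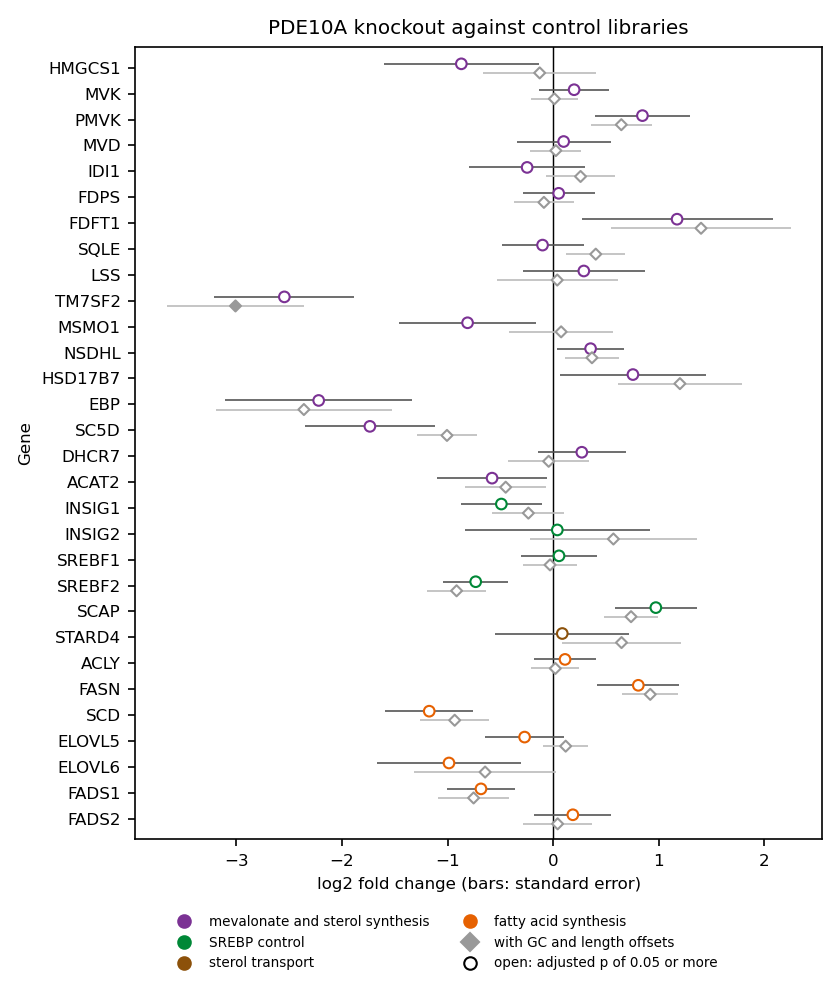
log2 fold change of the PDE10A knockout libraries against the control libraries for the 30 tested members, with bars of 1 standard error; circles are the uncorrected fit, coloured by role, diamonds the fit with GC and length offsets, and filled symbols have an adjusted p under 0.05. TM7SF2 lies lowest at -2.55 and is filled with offsets alone.

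The lines were then compared in pairs, which share libraries and are not independent of each other. KO 5H5 against EV 1B9 gave 2 lower members, TM7SF2 (-4.33, SE 0.63, adjusted p = 0.00093) and SCD (-1.68, SE 0.41, adjusted p = 0.0314), against 4.38% of all genes called and 1.68% called lower. KO 2F4 against EV 1B9 gave 3 lower members, TM7SF2 (-2.44, SE 0.57, adjusted p = 0.0157), SC5D (-2.99, SE 0.62, adjusted p = 0.00883) and SCD (-1.69, SE 0.41, adjusted p = 0.018), and PMVK as higher (1.76, SE 0.54, adjusted p = 0.0475), against 13% of all genes, 6.11% lower and 6.87% higher. The SCD call of clone 5H5 was lost without EV 1B9 replicate 2 (-1.55, adjusted p = 0.109), KO 5H5 replicate 1 (-1.53, adjusted p = 0.401) or KO 5H5 replicate 2 (-1.98, adjusted p = 0.0843). That of clone 2F4 was lost without EV 1B9 replicate 2 (-1.57, adjusted p = 0.0591) or KO 2F4 replicate 2 (-1.59, adjusted p = 0.0636). PMVK in KO 2F4 lost its call without EV 1B9 replicate 1 (1.55, adjusted p = 0.104), without KO 2F4 replicate 2 (0.94, adjusted p = 0.309) and under the GC and length offsets (0.96, adjusted p = 0.133). TM7SF2 kept its call in both comparisons whichever library was left out, as did SC5D in KO 2F4 against EV 1B9. With 1 library left out, other members passed as well, most often SC5D (6 libraries) and MSMO1 (4) in KO 5H5 against EV 1B9, and HMGCS1 (6 libraries) and SCAP (3, as higher) in KO 2F4 against EV 1B9.

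Against the parental cells few members differed. EV 1B9 against parental gave 0 members, against 1.34% of all genes, although 11 of 31 had an unadjusted p under 0.05, against 21.7% of all genes. The smallest adjusted p-values were those of SCD (98.7 CPM in EV 1B9 and 34.8 CPM in parental cells, adjusted p = 0.0849), HMGCS1 (2.68, SE 0.75, adjusted p = 0.0936), MSMO1 (2.24, SE 0.66, adjusted p = 0.101) and SC5D (1.92, SE 0.60, adjusted p = 0.116). That count moved with single libraries. It rose above 0 without EV 1B9 replicate 1, either KO 5H5 library, either KO 2F4 library or parental replicate 2. Each member then called was higher in EV 1B9, and the matching shares of all genes are not given. KO 5H5 against parental gave TM7SF2 as lower (-2.77, SE 0.59, adjusted p = 0.0465), against 0.74% of all genes called and 0.624% lower. That call was lost without parental replicate 1 (-2.05), with RLE size factors (-2.83, adjusted p = 0.0554) and with the replicate block (adjusted p = 0.0854). With parental 1 as the only parental library, TM7SF2 stayed lower. HMGCS1 (3.565), HSD17B7 (4.57) and INSIG2 (9.39) were then higher in KO 5H5, against 11, 3 and 0 reads in parental 1. KO 2F4 against parental gave 0 members, against 1.34% of genes, with TM7SF2 at -0.88 (SE 0.55, adjusted p = 0.526). With parental 1 as the only parental library, FDFT1 (8.67), INSIG2 (8.42), HSD17B7 (4.59), HMGCS1 (3.20) and MSMO1 (2.59) were higher in KO 2F4. Parental 1 had 0 reads of FDFT1 and INSIG2, 3 of HSD17B7, 11 of HMGCS1 and 24 of MSMO1. Without KO 2F4 replicate 1, SCAP was at 1.65 and EBP at -9.34, with 0 reads of EBP in the KO 2F4 library left. Once GC content and length were offset, FASN was higher in KO 2F4 than in parental cells (1.44, adjusted p = 0.0221), with 979 and 1874 CPM in KO 2F4, against 746 and 559 CPM. KO 2F4 against KO 5H5 gave 0 members, against 0.392% of genes. TM7SF2 was at 1.88 (SE 0.57, adjusted p = 0.236) and DHCR7 at 1.11 (SE 0.49, adjusted p = 0.444) in that pair, and TM7SF2 was called without either EV 1B9 library, KO 2F4 replicate 1 or parental replicate 2 (adjusted p = 0.000663 to 0.0244). Under these offsets, the members called numbered 1 in EV 1B9 against parental (1.83% of all genes), 4 in KO 5H5 against EV 1B9 (6.58%), 5 in KO 2F4 against EV 1B9 (12.8%), 1 in KO 5H5 against parental (1.51%), 1 in KO 2F4 against parental (4.22%) and 0 in KO 2F4 against KO 5H5 (1.21%).

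Other genes of the pathway were read in the same comparison of EV 1B9 with the other 3 lines. Among sterol synthesis genes outside the 32, 0 of 9 tested were called. LBR, which shares the reductase step of TM7SF2, averaged 21.0 CPM in EV 1B9 and 13.0 CPM in the others (0.81, adjusted p = 0.178). Of 17 tested genes of sterol uptake and trafficking, 4 were higher in EV 1B9 and 1 lower, against 7.03% and 5.15% of all genes. Both caveolin genes tested, whose products shape the cholesterol-rich caveolae of the cell membrane, were higher in EV 1B9. CAV1 had 249 and 245 CPM in EV 1B9, against 62.1 to 149 CPM in the other 6 libraries (1.37, SE 0.30, adjusted p = 0.0124). CAV2 had 92.6 and 113 CPM in EV 1B9, against 16.1 to 40.0 CPM in the others (1.82, SE 0.32, adjusted p = 0.00313). EV 1B9 stood above all other libraries for both, and both were also called with GC and length offsets (0.92 and 1.10). MYLIP and LRP1, named after their values were seen, were called as well. MYLIP had 7.35 and 5.77 CPM in EV 1B9, against 0.218 to 2.27 CPM in the others (2.69, SE 0.61, adjusted p = 0.0142), a call lost without EV 1B9 replicate 1 (adjusted p = 0.0818). LRP1, an endocytic receptor, was lower, with 5.62 and 19.7 CPM in EV 1B9, against 19.2 to 69.5 CPM in the others (-1.60, SE 0.48, adjusted p = 0.0446). The LRP1 groups overlapped, and the call was lost with GC and length offsets (adjusted p = 0.0943) and without EV 1B9 replicate 1 (-0.92, adjusted p = 0.413) or parental replicate 1 (-1.41, adjusted p = 0.0559). In the knockout against control comparison neither caveolin gene was called, with CAV1 at -1.14 (adjusted p = 0.174) and CAV2 at -1.37 (adjusted p = 0.178).

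Of 17 tested genes that carry, process or degrade SREBPs and their partners, 2 were higher in EV 1B9 and 1 lower, shares of 11.8% and 5.88% against 7.03% and 5.15% of all genes. ERLIN2 (1.19, adjusted p = 0.0263) and SEC23A (1.38, adjusted p = 0.0318) were higher in EV 1B9. Neither ERLIN2 nor SEC23A was called with GC and length offsets (0.53 and 0.33), and each lost its call without EV 1B9 replicate 2 (adjusted p = 0.117 and 0.506). The log2 fold change of SEC23A was then 0.84, while that of ERLIN2 was no smaller. ERLIN2 also lost the call without EV 1B9 replicate 1 (1.17, adjusted p = 0.154). Sterol efflux and oxysterol genes gave 1 higher and 1 lower of 13, 7.69% each, near the shares of all genes. The oxysterol receptor gene NR1H3 averaged 10.9 CPM in EV 1B9 and 26.6 CPM in the other libraries (-1.23, SE 0.40, adjusted p = 0.0601), and the cholesterol exporter ABCA1 9.04 CPM in EV 1B9 and 3.94 CPM in the others (1.20, SE 0.51, adjusted p = 0.13). In the fatty acid lists outside the 32, 3 of 24 synthesis and elongation genes were higher (12.5%) and 1 lower (4.17%), against 7.03% and 5.15% of all genes. The elongase ELOVL7 had 12.0 and 20.8 CPM in EV 1B9, against 1.51 to 7.08 CPM in the others (2.38, SE 0.46, adjusted p = 0.00625), a call lost without EV 1B9 replicate 2 (1.95, adjusted p = 0.0554). The regulator LPIN1, another SREBP target, averaged 6.17 CPM in EV 1B9 and 6.55 CPM in the others.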

How the data were processed

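The authors deposited raw counts per gene for 8 libraries in 1 table, and per the labels a directional kit was used. Tools listed in the submitters' processing notes, without roles, are STAR 2.7.3a, HTSeq 0.11.3, bcl2fastq 2.18.0.12 and DESeq2 1.26.0, with the build GRCh38. Which annotation and strand setting the counting used is not stated there. The 5 lines that name no gene (reads in no gene, in several genes or at several places), 24.1% to 44.6% of all counted reads, stayed out of library sizes and tests. No column was left unmatched (0). Symbols came from a gene name table (60649 identifiers, 90.5%), and coordinates, GC content and length from GENCODE 29.

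Counts were scaled with TMM (factors 0.802 to 1.29), filtered with filterByExpr (minimum count 10, total 15) and tested with edgeR 4.0.16 (R 4.3.3), quasi-likelihood, 1 mean per line with a shared spread or 2 classes for knockout against control. DESeq2 1.42.0 and limma 3.58.1 served as alternatives, besides RLE size factors, no filter, GC and length offsets (splines with 5 degrees of freedom), the title suffix as a block, counts summed per line, 1 mean per line, and leaving out libraries. The procedure was also run on simulated counts with 1 spread for all genes and no GC trend. Lines differed there only in the genes set to change, so that run cannot give error rates for these data. In the fits with 1 mean per line, p-values measure the spread between passages, not between independent clones. In knockout against control the spread mixes lines and passages. The 2 libraries of a line were treated there as separate replicates of its class. The 2 libraries of each line differed by more than sampling noise (chi-square per degree of freedom 91.9 to 191). The members, lists and tests were chosen with earlier results of these data known. All 32 members are described. Of each other list, the 3 genes with the smallest p in EV 1B9 were eligible to be named, with PDE10A, LPIN1, LBR, NR1H3 and ABCA1 always named and the 5 genes most like the members' mean profile. Some other genes that this rule names are not reported here.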

Additional observations from a re-analysis of the deposited data

Results flagged for a closer look

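Over 96 sets of 4 or 6 libraries tested gene by gene, 9 held a library that stood apart from the rest of its set by its gap over the set's range. The rule picks about 1 in 20 sets of independent values from 1 distribution. These sets mix lines and share libraries, so 9 of 96 cannot be compared with that rate. KO 2F4 2 was that library in 6 of them. Among the 6 libraries outside EV 1B9 it was above the others for DHCR7 (301 CPM, others up to 137), INSIG1 (19.3 CPM, others up to 14.8), SREBF1 (66.3 CPM, others up to 41.4) and FADS2 (306 CPM, others up to 199). Among the knockout libraries it was above the others for SREBF2 (244 CPM, others 207 to 210.5) and below them for ELOVL5 (30.9 CPM, others 49.6 to 50.2). EV 1B9 2 stood above the other controls for SREBF2 (524 CPM, others 292 to 299) and FADS2 (284 CPM, others 136.5 to 149). KO 5H5 1 stood below the other knockout libraries for MSMO1 (5.43 CPM, others 10.5 to 10.7). KO 2F4 2 also had 33.4% of its reads not assigned to a gene and the highest correlation of level with GC content, 0.35. The part of either in these values was not tested.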

How the results depend on the processing

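Of 691 values of single members under other settings, 642 kept their side of the threshold, 15 lost a call, 34 gained one and 0 reversed a called direction. These values are only part of those under other settings, and fits with libraries left out gained more calls than 34. Members called numbered 0 in knockout against control, 2 (TM7SF2 and SC5D, lower) with no filter or 1 mean per line, and 1 (TM7SF2) with GC and length offsets, with DESeq2 and without parental 1 and KO 2F4 2. EV 1B9 against the other 3 lines gave 5, but 7 with no filter or DESeq2. EV 1B9 against parental gave 0, but 5 with no filter or DESeq2, and 1 with GC and length offsets or without those libraries. KO 5H5 against EV 1B9 gave 2, but 4 with no filter, DESeq2 or offsets and 6 without those libraries. KO 2F4 against EV 1B9 gave 4, but 6 with no filter, 5 with DESeq2 or offsets and 3 with RLE size factors or the replicate block. It gave fewer without those libraries. KO 5H5 against parental gave 1, but 0 with RLE size factors or the replicate block. KO 2F4 against parental gave 0, but 1 with offsets, and KO 2F4 against KO 5H5 gave 0, but 1 with no filter or DESeq2. The omission of both libraries was chosen after seeing the data. Among these settings, the share of all genes called is given for the offsets alone. The cause of these differences was not tested.

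With 1 library left out, the numbers of members called ran from 0 to 1 (1 without KO 2F4 replicate 2) for knockout against control, 3 to 11 for EV 1B9 against the other 3 lines and 0 to 9 for EV 1B9 against parental. They ran from 1 (without EV 1B9 replicate 2 or KO 5H5 replicate 1) to 5 (without either KO 2F4 library; 4 without either parental library) for KO 5H5 against EV 1B9. They ran from 2 (without KO 2F4 replicate 2) to 9 (without KO 2F4 replicate 1) for KO 2F4 against EV 1B9, from 0 to 4 and 0 to 5 for KO 5H5 and KO 2F4 against parental, and from 0 to 1 between the knockout clones. The single library left in a line was assumed to vary like the other lines. Shares of all genes called in these fits are not given, so the counts cannot be set against them.

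The title suffix did not pair the libraries, since differences between the libraries of a line correlated at -0.26 to 0.20 between lines. With the replicate block, 0 members were called in knockout against control, 5 in EV 1B9 against the other 3 lines, 0 against parental, 1 in KO 5H5 against EV 1B9, 3 in KO 2F4 against EV 1B9 and 0 in the 3 other pairs. With the block and offsets together the numbers were 1, 5, 1, 4, 4, 1, 1 and 0 in the same order, the last 3 being KO 5H5 and KO 2F4 against parental and KO 2F4 against KO 5H5. The 2 libraries per line and the few reads of ACACA, CYP51A1, FDFT1 and EBP limit what could be detected.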

Other observations

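Genes of fat storage and breakdown outside the 32 were read in the same comparison. Of 19 tested genes of glycerolipid synthesis, 5 were lower in EV 1B9 than in the other 3 lines and 0 higher, where 5.15% of all genes were lower. PLIN2, the coat protein of lipid droplets, had 0.432 and 0.0403 CPM in EV 1B9, against 2.86 and 7.08 CPM in clone 5H5, 58.1 and 16.3 CPM in clone 2F4 and 5.73 and 4.35 CPM in parental cells (log2 fold change -5.24, SE 0.85, edgeR adjusted p = 0.00182). The EV 1B9 libraries held 16 reads and 1 read, and KO 2F4 the most. DGAT2, which makes triglyceride, had 0.459 and 0.484 CPM in EV 1B9, against 0.986 to 10.5 CPM in the others (-2.98, SE 0.62, adjusted p = 0.00884). That call was lost without EV 1B9 replicate 1 (adjusted p = 0.0581) or 2 (0.0505), where the log2 fold change was -2.90 and -3.00. LPIN3, a phosphatidate phosphatase, had 2.40 and 4.52 CPM in EV 1B9, against 4.60 to 24.5 CPM (-2.07, SE 0.50, adjusted p = 0.0184), and lost its call without EV 1B9 replicate 1 (-1.65, adjusted p = 0.121). With GC and length offsets PLIN2 (-5.45), DGAT2 (-2.64) and LPIN3 (-1.53) were lower too.

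Of 22 tested genes of fatty acid oxidation, 2 were lower in EV 1B9 (9.09%, against 5.15% of all genes) and 0 higher (7.03% of all genes), and 9 of 22 had a log2 fold change above 0. ACADS, the short-chain acyl-CoA dehydrogenase, had 5.16 and 12.3 CPM in EV 1B9, against 28.7 to 89.1 CPM in the others (-2.22, SE 0.48, adjusted p = 0.0116), a call lost without EV 1B9 replicate 1 (-1.68, adjusted p = 0.0601). ACAA1, a peroxisomal thiolase, averaged 27.7 CPM in EV 1B9 and 70.6 CPM in the others (-1.32, adjusted p = 0.0396). It was not called with offsets (-0.89), nor without either EV 1B9 library (adjusted p = 0.302 and 0.0816), KO 5H5 replicate 1 (0.125) or parental replicate 1 (0.0882). Of 12 tested genes of the isoprenoid branch, which uses farnesyl diphosphate, 2 were higher, FNTA (1.62, adjusted p = 0.0239) and ICMT (1.20, adjusted p = 0.0416), and DOLK was lower (-1.31, adjusted p = 0.0278). These are shares of 16.7% and 8.33%, against 7.03% and 5.15% of all genes. Of these, ICMT was called with offsets (adjusted p = 0.00513). FNTA (1.37), ICMT (0.76) and DOLK (-1.11) each lost the call without EV 1B9 replicate 1, and DOLK also without EV 1B9 replicate 2 (-1.47), KO 5H5 replicate 1 (-1.12) or parental replicate 1 (-1.22).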
